A study of Mus musculus with 8 samples.

Results

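The Slc25 genes encode the mitochondrial carrier family, and their mRNAs were followed here in mouse tibialis anterior (TA) muscle after knockdown of *Uba1*. Members were chosen by name alone, as every gene whose symbol begins with Slc25a and a number. The rule found 47 genes among the 41709 in the table of transcript abundances (TPM, a level set against the sum of all transcripts and scaled by transcript length). Of these, 37 reached 1 TPM in at least 4 of the 8 muscles and entered the test together with 11530 genes in all.

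Mitochondrial carriers are small membrane proteins, mostly of the inner mitochondrial membrane, that exchange nucleotides, phosphate, organic acids, amino acids, fatty acid conjugates and cofactors between the matrix and the cytosol. They are encoded in the nucleus, made in the cytosol and inserted by the TIM22 translocase. Skeletal muscle depends on them to export ATP to the myofibrils and to bring in phosphate, reducing equivalents and fatty acids. UBA1, the target of the knockdown, is an E1 enzyme that activates ubiquitin at the start of the ubiquitination cascade.

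The 8 TA muscles came from 4 male C57BL/6J mice, 3 months old, and were collected 7 days after electroporation of siRNAs. All the muscles with non-targeting (NT) siRNAs were right legs (R) and all those with *Uba1* siRNAs were left legs (L), so leg and siRNA cannot be told apart. Both groups had injection and electroporation, and the siRNAs of each kind were pools of several sequences. The muscles were sequenced whole, and how many fibers took up siRNA was not measured here. Equal replicate numbers mark the 2 legs of 1 mouse, called a pair below. In the sample labels, the treatment entries of replicates 2, 3 and 4 name UBA2, UBA3 and UBA4, whereas titles, descriptions and the study name UBA1 throughout. In bulk muscle, fewer cells of a type and less RNA per cell cannot be told apart.

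*Uba1* mRNA was at 60.6, 59.0, 63.6 and 59.1 TPM with NT siRNAs and at 18.1, 6.77, 15.8 and 23.1 TPM with *Uba1* siRNAs. All the knockdown muscles lay below all the control muscles. The log2 fold change (log2FC, computed on log2(TPM + 1), which understates changes of low genes) was -1.98 with a standard error (SE) of 0.290 and an adjusted p of 0.0527 in limma, or 0.0278 with the mouse as a replicate block. An exact permutation test gave p = 0.0286, two-sided, which is the smallest that 4 against 4 allows. Transcripts of the mitochondrial genome took 39.9% to 50.3% of all TPM. Markers of fast fibers summed to 85310 TPM or more in every muscle and those of slow fibers to 73.6 TPM or less. The fast list held *Acta1* and *Ckm*, which are not confined to fast fibers. Its myosin *Myh4* alone was at 10560 TPM or more in every muscle, as is known for a TA muscle.

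The family was dominated by 1 member. *Slc25a4*, the adenine nucleotide carrier of muscle and heart that exchanges ADP for ATP, was at 3206, 2964, 3092 and 3024 TPM with NT siRNAs and at 3443, 3106, 3146 and 3172 TPM with *Uba1* siRNAs. It ranked 23rd by mean TPM among all genes outside the mitochondrial genome and made up 73.8% to 75.1% of the summed Slc25 TPM in each muscle. *Slc25a3*, the phosphate carrier, and *Slc25a11*, which exchanges malate for 2-oxoglutarate, came next with means over the 8 muscles of 265 and 264 TPM. Their ranges overlapped and *Slc25a3* was the higher in 5 of 8 muscles, so these neighbours were not told apart. *Slc25a12* (aralar), the aspartate-glutamate carrier of the malate-aspartate shuttle, followed at 146 TPM and *Slc25a5*, the widely expressed adenine nucleotide carrier, at 52.9 TPM, each in the same order in 8 of 8 muscles.

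Below these, *Slc25a39* (35.2 TPM), *Slc25a25* (31.6 TPM), *Slc25a20* (28.9 TPM) and *Slc25a51* (26.6 TPM) formed a group in which the ranges of neighbours overlapped. In all, 1 member had a mean above 1000 TPM, 3 lay between 100 and 1000, 5 between 20 and 100, 17 between 5 and 20 and 11 between 1 and 5 TPM. The other 10 were at 1 TPM or less. From *Slc25a46* (18.1 TPM) down to *Slc25a14* (1.21 TPM), the ranges of every pair of neighbours in the order overlapped. Within a muscle, *Slc25a42* was above *Slc25a37* and *Slc25a10* above *Slc25a45* in 8 of 8 muscles, while the other neighbours there kept their order in 7 or fewer. Reads from *Slc25a4* and *Slc25a5* can also match each other and their pseudogenes, and how the counting divided such reads is not given in the sources used here.

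**Figure D1:**
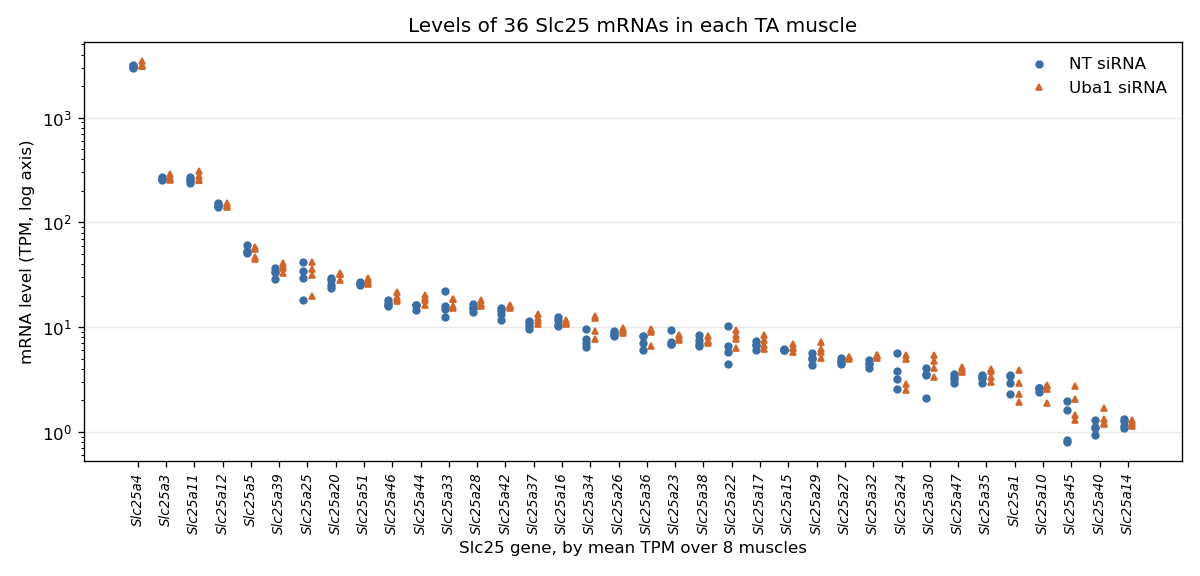
TPM of 36 of the 37 Slc25 genes tested, on a log axis, in each of the 4 muscles with NT siRNAs (circles) and the 4 with *Uba1* siRNAs (triangles), ordered by mean TPM. *Slc25a4* stands far above the rest in all muscles, at 2964 TPM or more, and the siRNA groups lie close together for nearly all genes.

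Promoters are shown for *Slc25a5*, whose groups came apart under 1 scaling (below), and for *Slc25a25*, whose level differed widely between mice. Each is the 250 bases before a transcription start of RefSeq, placed on GRCm39 by exact match. Capitals mark the CCAAT box (CCAAT), the GC box (GGGCGG) and the cAMP response element (TGACGTCA), each on either strand, so that ATTGG and CCGCCC are the same boxes read on the other strand. The lines give *Slc25a5* (chrX:36059000-36059249, plus strand) and *Slc25a25* (chr2:32314079-32314328, minus strand, the third of 3 starts).
Slc25a5: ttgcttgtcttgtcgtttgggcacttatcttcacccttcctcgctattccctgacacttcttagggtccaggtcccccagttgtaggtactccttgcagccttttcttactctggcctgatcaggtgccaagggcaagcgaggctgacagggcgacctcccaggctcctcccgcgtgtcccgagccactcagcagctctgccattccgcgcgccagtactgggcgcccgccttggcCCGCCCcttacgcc
Slc25a25: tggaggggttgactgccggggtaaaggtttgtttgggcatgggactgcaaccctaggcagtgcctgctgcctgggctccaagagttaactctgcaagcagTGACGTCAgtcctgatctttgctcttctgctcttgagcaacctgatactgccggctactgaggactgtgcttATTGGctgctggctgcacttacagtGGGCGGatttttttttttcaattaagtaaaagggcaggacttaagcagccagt
The *Slc25a5* window held 1 GC box 14 bases before the start and no CCAAT box, and its last 27 bases lie in an exon of the gene by GENCODE, which sets the start further upstream. The cAMP response element of *Slc25a25* began 150 bases before its start, which lies inside the longer transcripts of the gene. Among the 46 promoters that RefSeq gives for 36 of the 47 members, 69.6% held a GC box, against 32.7% of all 32851 promoters. A CCAAT box was in 45.7% of the members' promoters and 33.8% of all, and TGACGTCA in 4.35% (*Slc25a25* and *Slc25a36*) and 1.55%. The nuclear receptor half-site AAGGTCA was in 2.17% of them (*Slc25a34*) and 4.08% of all. These matches are descriptions of the letters, and some genes count with several starts.

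To ask whether knockdown of *Uba1* altered the carriers, each member was compared between siRNAs. Most members were slightly higher with *Uba1* siRNAs, as were most genes, and none passed the adjusted test. With limma and Benjamini-Hochberg adjustment, 0 of 37 members had an adjusted p under 0.05 in either direction, against 0% of all genes tested that were higher and 0.026% that were lower. With the replicate block there were again 0 members, against 0.191% of all genes higher and 0.304% lower. At an unadjusted p under 0.05 in limma, 8 members (21.6%) were higher against 16% of all genes, and 0 were lower against 1.98%. The 8 were *Slc25a20*, *Slc25a29*, *Slc25a32*, *Slc25a34*, *Slc25a42*, *Slc25a44*, *Slc25a46* and *Slc25a47*. With the replicate block 12 members (32.4%) were higher at that threshold against 22.4% of all genes, and 0 were lower against 2.8%. These were the former without *Slc25a44*, and *Slc25a30*, *Slc25a36*, *Slc25a37*, *Slc25a39* and *Slc25a45*. With single muscles left out, the count of 8 became 4 without NT siRNA replicate 2 or 3 and 5 without *Uba1* siRNA replicate 1, 3 or 4. The matching share of all genes in those fits is not given here. The Kruskal-Wallis test gave 7 higher (18.9%) against 17.5% of all genes, and 0 lower against 1.71%.

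The direction of the family followed that of all genes. A log2FC above 0 was seen for 33 of 37 members (89.2%) and for 81.8% of all genes, and the median log2FC was 0.09 for members and 0.11 for all genes. The median-ratio scaling, which sets the muscles level on the 15736 genes above 0 in every muscle, moved the median of all genes to -0.0055. It then left 16 of 37 members (43.2%) above 0 against 48% of all genes, with a median for members of -0.022, so that 17 members changed from above to below 0 and 0 the other way. Under that scaling 0 members were higher at an unadjusted p under 0.05 in limma, against 3.9% of all genes, and 1 was lower (*Slc25a5*), against 6.7%. Quantile normalization left 17 members (45.9%) above 0 against 54.6% of all genes, with 0 members higher at an unadjusted p under 0.05 against 4.45% and 0 lower against 5.16%. With the block and median-ratio scaling together, 2 members (*Slc25a30* and *Slc25a45*, 5.41%) were higher at that threshold against 6.19% of all genes, and *Slc25a5* was lower against 9.5%. Past the adjusted test in limma there were 0 members under each of these scalings. All genes past it were 0.00867% higher and 0.234% lower with either scaling alone, and 0.0607% higher and 0.65% lower with the block and median-ratio scaling.

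The share of genes higher in the *Uba1* siRNA leg differed between pairs. In pairs 1 and 3, 83.8% and 81.1% of the members were higher in the *Uba1* siRNA leg, beside 83.3% and 81.8% of all genes. In pairs 2 and 4 the members were at 73% and 70.3%, beside 56.1% and 61.8% of all genes. Transcripts of the mitochondrial genome went from 45.7% of TPM in the NT leg to 40.2% in the *Uba1* siRNA leg in pair 1. In pair 3 they went from 42.1% to 39.9%, in pair 2 from 43.9% to 50.3% and in pair 4 from 43.2% to 46.5%. Their part in the shares of genes was not tested.

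**Figure D2:**
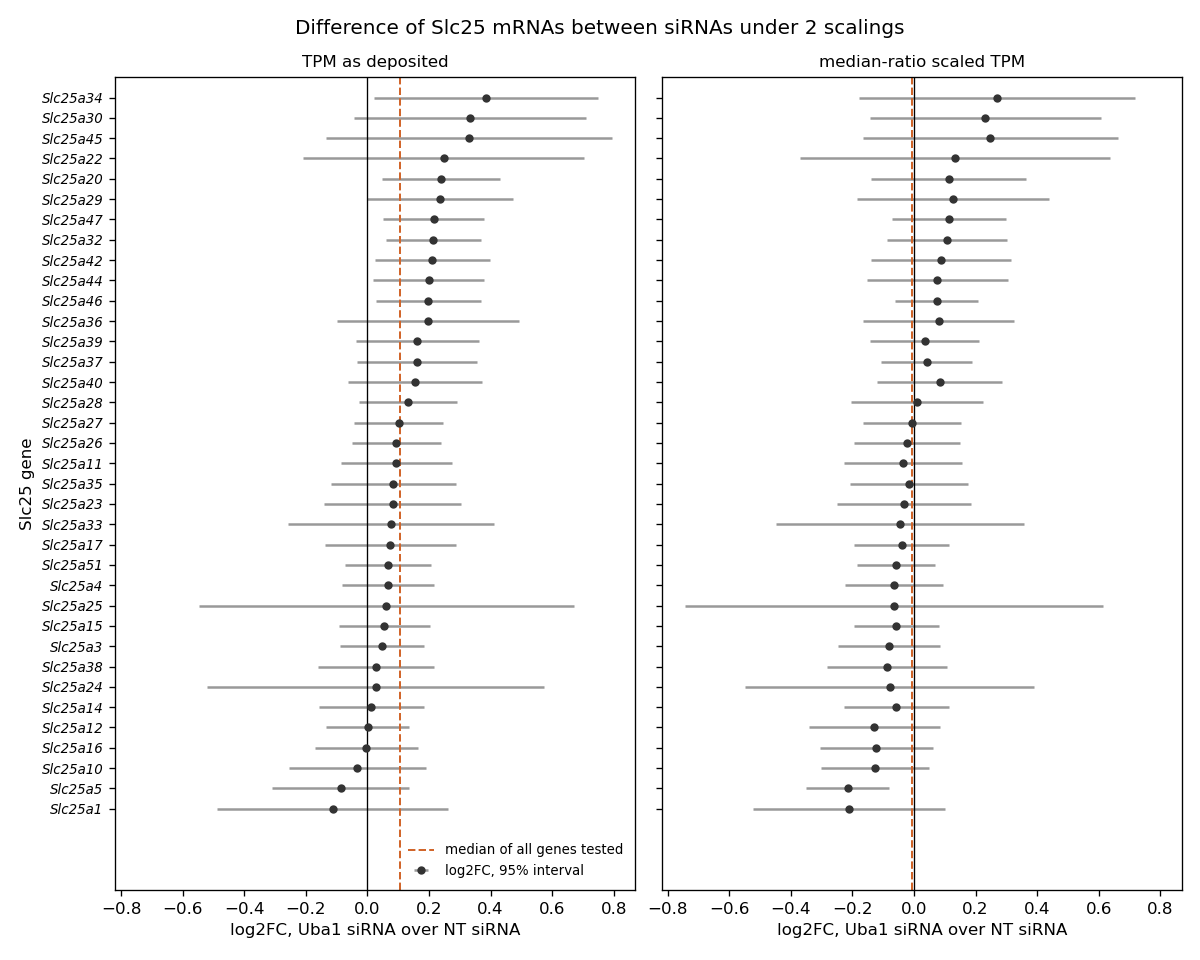
log2FC (*Uba1* siRNA over NT siRNA) of 36 of the 37 Slc25 genes tested, with 95% intervals from limma, for TPM as deposited (left) and after median-ratio scaling (right). The dashed line is the median of all 11530 genes tested, which moves from 0.11 to -0.0055, and the members move with it.

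The summed TPM of all 47 members was 4293, 4011, 4118 and 4049 with NT siRNAs and 4618, 4209, 4207 and 4257 with *Uba1* siRNAs. In deposited TPM the knockdown leg had the larger sum in 4 of 4 pairs, but in 2 of 4 after median-ratio scaling and in 2 of 4 when the mitochondrial genome was left out of the total. The share of *Slc25a4* in the sum, which dividing a muscle by 1 factor does not alter, was 74.6% ± 0.499 in control muscles and 74.4% ± 0.426 in knockdown muscles (mean ± SD of 4 muscles), lower in 4 of 4 pairs. In percent it was 74.7, 73.9, 75.1 and 74.7 in control muscles and 74.6, 73.8, 74.8 and 74.5 in knockdown muscles, and the groups overlapped.

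Among the adenine nucleotide and phosphate carriers, 2 of 3 tested members had a log2FC above 0 (81.8% of all genes) and none had an unadjusted p under 0.05 in limma (16% of all genes were higher and 1.98% lower). After median-ratio scaling 0 of 3 were above 0 (48% of all genes), and *Slc25a5* had an unadjusted p of 0.0058 in limma (6.7% of all genes were lower at 0.05). For *Slc25a4* (chromosome 8, 46656538 to 46664325, minus strand) the log2FC was 0.07 (SE 0.0662, 95% interval -0.083 to 0.22, adjusted p = 0.589 in limma). It was higher in 4 of 4 pairs as deposited, while its ranges with the 2 siRNAs overlapped and its log2FC after median-ratio scaling was -0.064. *Slc25a3* was at 272, 258, 260 and 252 TPM with NT siRNAs and at 288, 268, 256 and 266 TPM with *Uba1* siRNAs, with overlapping groups and a log2FC of 0.05 (SE 0.0603). Without *Uba1* siRNA replicate 1 the log2FC was 0.033 for *Slc25a4* and 0.016 for *Slc25a3*.

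*Slc25a5* (chromosome X, 36059223 to 36062462, plus strand) was at 52.1, 53.8, 60.4 and 51.3 TPM with NT siRNAs and at 57.9, 44.3, 56.2 and 47.2 TPM with *Uba1* siRNAs. The groups overlapped, and it was lower in 3 of 4 pairs with a log2FC of -0.087 (SE 0.0991, adjusted p = 0.637 in limma). With 1 muscle left out it ran from -0.15 without *Uba1* siRNA replicate 1 to -0.019 without *Uba1* siRNA replicate 2, and was -0.036 without NT siRNA replicate 3. After median-ratio scaling it was at 54.2, 57.1, 60.7 and 54.6 with NT siRNAs and at 51.1, 45.8, 49.7 and 48.0 with *Uba1* siRNAs, so that the groups no longer overlapped. Its scaled log2FC was -0.21 (SE 0.0599, 95% interval -0.35 to -0.080), with an adjusted p of 0.232 in limma, which misses the threshold. Among the 37 tested it was the 1 member whose scaled groups lay apart on the lower side (2.7% against 4.55% of all genes).

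The ratio of *Slc25a4* to *Slc25a5*, which compares 2 genes within a muscle (each as TPM + 1), was 60.4, 54.1, 50.4 and 57.9 with NT siRNAs and 58.4, 68.7, 55.0 and 65.9 with *Uba1* siRNAs. It was higher in 3 of 4 pairs, with a difference of 0.15 on the log2 scale (p = 0.171, exact permutation test, 0.857 adjusted over the 5 ratios tested). The other ratios compared further carriers that share a substrate class: *Slc25a12* to *Slc25a13*, *Slc25a37* to *Slc25a28*, *Slc25a39* to *Slc25a40* and *Slc25a36* to *Slc25a33*. Their log2 differences were -0.091, 0.028, 0.0068 and 0.12, and by the same exact test their adjusted p was 0.943 each. *Slc25a13* averaged 0.377 TPM with NT siRNAs and 0.464 TPM with *Uba1* siRNAs, below the added 1. Its ratio therefore says little about that gene. Sign-flip tests over the 4 pairs, which cannot go below 0.125, gave p = 0.25 or more for all 5 ratios (exact).

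Of the 8 carriers of aspartate, glutamate and citric acid cycle intermediates, 5 were tested, with log2FC from -0.11 to 0.25. As deposited 3 of the 5 were above 0 (81.8% of all genes), and after median-ratio scaling 1 was (48%). *Slc25a11* was at 274, 254, 253 and 239 TPM with NT siRNAs and at 307, 278, 253 and 254 TPM with *Uba1* siRNAs, with overlapping groups and a log2FC of 0.09 (SE 0.0798), or 0.037 without *Uba1* siRNA replicate 1. *Slc25a12* was at 142, 151, 141 and 152 TPM with NT siRNAs and at 141, 148, 142 and 154 TPM with *Uba1* siRNAs. Its groups covered the same range, and their means of 146 ± 5.97 and 146 ± 5.98 TPM gave a log2FC of 0.00058 (SE 0.0592, 95% interval -0.13 to 0.13). *Slc25a1*, which exports citrate for lipid synthesis, was at 2.90, 3.43, 3.52 and 2.29 TPM with NT siRNAs and at 3.91, 2.31, 2.94 and 1.95 TPM with *Uba1* siRNAs. It was lower in 3 of 4 pairs with overlapping groups, and its log2FC of -0.11 (SE 0.167) was the lowest of the 37 tested, though it was -0.0021 without *Uba1* siRNA replicate 4.

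*Slc25a10*, the dicarboxylate carrier, was at 2.42, 2.62, 2.61 and 2.61 TPM with NT siRNAs and at 2.77, 1.89, 2.80 and 2.57 TPM with *Uba1* siRNAs. The groups overlapped, with the lowest value in *Uba1* siRNA replicate 2, and the log2FC was -0.032 (SE 0.0983). *Slc25a22*, a glutamate carrier, was between 4.41 and 10.1 TPM with NT siRNAs and between 6.31 and 9.36 TPM with *Uba1* siRNAs, with a log2FC of 0.25 (SE 0.203), or 0.13 after scaling. The cytosolic and mitochondrial enzymes that work with these carriers in the malate-aspartate shuttle are *Got1*, *Got2*, *Mdh1* and *Mdh2*. They had 0 of 4 past the adjusted test and a median log2FC of 0.011 (0.11 for all genes). Above 0 were 2 of 4 as deposited (81.8% of all genes) and 0 of 4 after scaling (48%). The citric acid cycle genes had 0 of 9 and a median log2FC of 0.05 (0.11 for all genes), with 7 of 9 above 0 as deposited (81.8% of all genes) and 1 of 9 after median-ratio scaling (48%).

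The carriers of fatty acid conjugates and amino acids held 3 of the 8 members with an unadjusted p under 0.05 in limma, which 16% of all genes met on the higher side. All 5 tested had a log2FC above 0, as had 81.8% of all genes, and after median-ratio scaling none of the 5 had an unadjusted p under 0.05. *Slc25a20* (chromosome 9, 108539250 to 108562760, plus strand), the carnitine-acylcarnitine carrier that brings long-chain fatty acids into the matrix, was at 29.1, 23.4, 25.1 and 28.4 TPM with NT siRNAs and at 32.0, 32.4, 28.4 and 32.8 TPM with *Uba1* siRNAs. The *Uba1* siRNA leg was the higher in 4 of 4 pairs, and the groups overlapped between 28.4 and 29.1 TPM. The log2FC was 0.24 (SE 0.0852, 95% interval 0.047 to 0.43), with an adjusted p of 0.210 in limma and 0.132 with the replicate block. After median-ratio scaling the log2FC was 0.11 (SE 0.111).

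*Slc25a29*, a carrier of basic amino acids, was at 4.94, 5.08, 4.31 and 5.66 TPM with NT siRNAs and at 5.82, 7.17, 5.12 and 6.21 TPM with *Uba1* siRNAs. All 4 pairs were higher while the groups overlapped, with a log2FC of 0.24 (SE 0.105, adjusted p = 0.278 in limma), or 0.13 after scaling. *Slc25a44*, which imports branched-chain amino acids, was at 16.1, 16.3, 14.5 and 16.3 TPM with NT siRNAs and at 16.1, 18.8, 20.3 and 18.1 TPM with *Uba1* siRNAs. In 3 of 4 pairs the *Uba1* siRNA leg was the higher, with a log2FC of 0.20 (SE 0.0803), or 0.076 after scaling. *Slc25a15*, the ornithine carrier, and *Slc25a38*, linked to glycine import for heme synthesis, had a log2FC of 0.06 (SE 0.0659) and 0.03 (SE 0.0834), which scaling turned to -0.057 and -0.088.

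The list of carnitine shuttle genes held 4 enzymes that load and unload carnitine and *Slc22a5*, the carnitine transporter of the plasma membrane. Of these 5, 0 passed the adjusted test and 2 were higher at an unadjusted p under 0.05 in limma, a threshold met by 16% of all genes, with a median log2FC of 0.17 beside 0.11 for all genes. *Cpt1b*, the muscle enzyme of the outer membrane, was at 187, 171, 167 and 187 TPM with NT siRNAs and at 198, 209, 201 and 212 TPM with *Uba1* siRNAs, without overlap. Its log2FC was 0.20 (SE 0.0623, adjusted p = 0.177 in limma). *Cpt2*, its partner of the inner membrane, was at 59.3, 47.9, 51.9 and 50.6 TPM with NT siRNAs and at 64.2, 60.2, 59.8 and 61.8 TPM with *Uba1* siRNAs, again without overlap, with a log2FC of 0.23 (SE 0.0739, adjusted p = 0.183 in limma). After median-ratio scaling these log2FC were 0.07 and 0.10. *Cpt1a*, the liver form, had a log2FC of 0.05 (SE 0.164), higher in 2 of 4 pairs, and *Crat*, carnitine acetyltransferase, 0.08 (SE 0.0663), and scaling turned them to -0.054 and -0.053. *Slc22a5* had a log2FC of 0.17 (SE 0.0846), which is the list's median, and 0.05 after scaling.

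Regulators of mitochondrial genes had 0 of 9 past the adjusted test and 3 of 9 higher at an unadjusted p under 0.05 in limma, beside 16% of all genes. With a log2FC above 0 there were 8 of 9 as deposited (81.8% of all genes) and 4 of 9 after median-ratio scaling (48%). *Ppargc1a*, the coactivator PGC-1alpha that drives mitochondrial gene expression in muscle, was at 8.28, 7.41, 10.9 and 9.80 TPM with NT siRNAs and at 11.2, 13.1, 12.5 and 11.8 TPM with *Uba1* siRNAs. All muscles with *Uba1* siRNAs lay above all muscles with NT siRNAs, with a log2FC of 0.39 (SE 0.111, adjusted p = 0.168 in limma) and 0.27 after median-ratio scaling. *Esrrg*, a nuclear receptor that works with it, had a log2FC of 0.36 (SE 0.110, adjusted p = 0.177 in limma) and 0.25 after scaling. *Gabpa*, a subunit of the factor GABP, was the third, with a log2FC of 0.17 (SE 0.0754) and 0.05 after scaling.

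**Figure D3:**
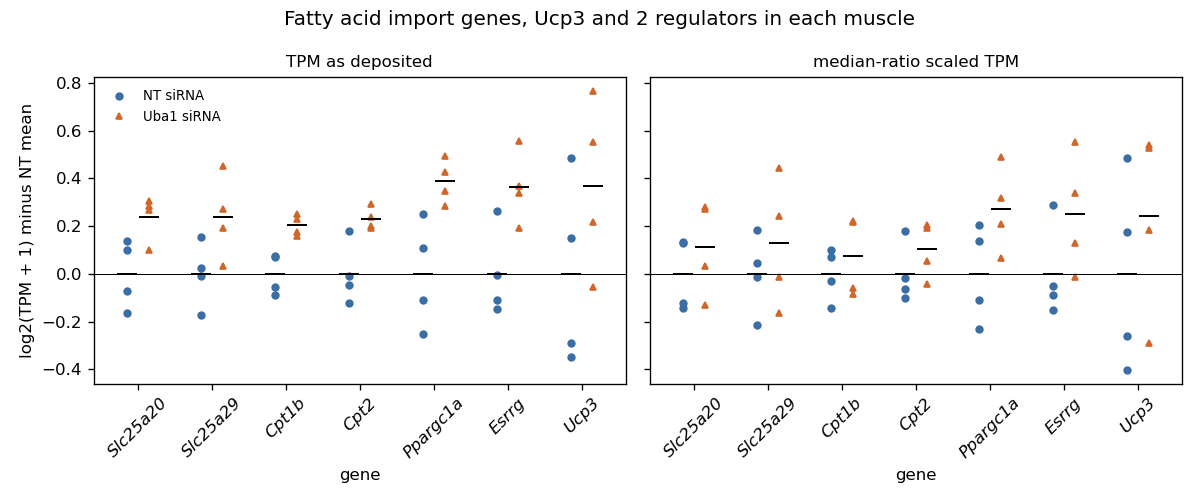
log2(TPM + 1) of 7 genes in each muscle, minus the mean of the 4 muscles with NT siRNAs, for TPM as deposited (left) and after median-ratio scaling (right). Points are single muscles and black bars are group means. *Cpt1b*, *Cpt2* and *Ppargc1a* lie apart between siRNAs on the left, and on the right the groups of all 7 genes overlap.

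Carriers of cofactors and nucleotides included 9 members, all tested, of which 8 had a log2FC above 0 (81.8% of all genes) and 2 an unadjusted p under 0.05 in limma (16% of all genes, on the higher side). After median-ratio scaling 3 of the 9 were above 0 (48% of all genes) and 0 under that p. *Slc25a32* (chromosome 15, 38954620 to 38976159, minus strand), linked to the import of folate and FAD, was at 4.86, 4.50, 4.08 and 4.41 TPM with NT siRNAs and at 5.09, 5.46, 5.34 and 5.42 TPM with *Uba1* siRNAs. The groups did not overlap. The log2FC was 0.21 (SE 0.0683, 95% interval 0.060 to 0.37), with an adjusted p of 0.182 in limma and an exact permutation p of 0.0286. Scaled, it was 0.11 (SE 0.0862) and the groups overlapped.

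*Slc25a42* (chromosome 8, 70636988 to 70664966, minus strand), a carrier of coenzyme A, was at 14.4, 13.3, 11.6 and 15.2 TPM with NT siRNAs and at 16.0, 15.3, 15.8 and 16.3 TPM with *Uba1* siRNAs. The groups did not overlap by a narrow margin, and the log2FC was 0.21 (SE 0.0832, adjusted p = 0.240 in limma), or 0.089 after scaling. Its exons overlap *Tmem161a* on the opposite strand, and with this library kit reads of the 2 strands cannot be told apart. Such an overlap on the opposite strand was annotated for 25 of the 47 members, among them *Slc25a11* (*Rnf167*), *Slc25a39* (*Rundc3a*), *Slc25a25* (*Naif1*), *Slc25a18* (*Atp6v1e1*) and *Slc25a21* (*Pax9*). *Slc25a32*, *Slc25a42* and *Slc25a47* were the 3 members (8.11%) whose deposited groups lay apart on the higher side, against 10.6% of all genes, and 0 did on the lower side, against 1.01%. After scaling 0 members lay apart on the higher side, against 2.18% of all genes.

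*Slc25a16*, linked to coenzyme A in the matrix, was at 10.2, 10.6, 11.8 and 12.4 TPM with NT siRNAs and at 11.6, 10.8, 11.0 and 11.3 TPM with *Uba1* siRNAs, with overlapping groups and a log2FC of -0.0028 (SE 0.0744). *Slc25a51*, the carrier of NAD+, had a log2FC of 0.07 (SE 0.0614). *Slc25a26*, which imports S-adenosylmethionine, was higher in 4 of 4 pairs with a log2FC of 0.09 (SE 0.0637), or -0.022 after scaling. *Slc25a33* and *Slc25a36*, the pyrimidine nucleotide carriers, had a log2FC of 0.08 (SE 0.149) and 0.20 (SE 0.131), or -0.046 and 0.08 after scaling. *Slc25a17*, the family's carrier of the peroxisome, had 0.07 (SE 0.0944).

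All 4 iron and glutathione carriers had a log2FC between 0.13 and 0.16, where 81.8% of all genes were above 0. None had an unadjusted p under 0.05 in limma, which 16% of all genes met on the higher side. *Slc25a37* and *Slc25a39* did with the replicate block, as did 22.4% of all genes on the higher side. With the block and median-ratio scaling neither did in limma. *Slc25a39*, which brings glutathione into mitochondria, was at 33.5, 36.5, 33.5 and 29.1 TPM with NT siRNAs and at 40.7, 37.0, 38.1 and 32.9 TPM with *Uba1* siRNAs. All 4 pairs were higher while the groups overlapped, and the mouse of pair 4 was the lowest in both legs. Its log2FC was 0.16 (SE 0.0885, adjusted p = 0.345 in limma) and 0.04 after median-ratio scaling. It was 0.10 without NT siRNA replicate 4 and 0.22 without *Uba1* siRNA replicate 4, when its unadjusted p in limma fell to 0.0362. The iron carriers *Slc25a37* (mitoferrin 1) and *Slc25a28* (mitoferrin 2) were also higher in 4 of 4 pairs, from 10.5 ± 0.873 to 11.9 ± 1.17 TPM and from 15.2 ± 1.13 to 16.8 ± 0.834 TPM (mean ± SD of 4 muscles). Their log2FC was 0.16 and 0.13 as deposited and 0.04 and 0.011 after scaling. Of the 7 genes of mitochondrial iron and heme handling, 0 passed the adjusted test, and their median log2FC was 0.06 (0.11 for all genes). Above 0 were 5 of 7 as deposited (81.8% of all genes) and 2 of 7 after scaling (48%). Erythroid cells, which are rich in mitoferrin 1, had 0 of 5 markers with a log2FC above 0 (81.8% of all genes). Their summed level was 1923 to 6998 TPM with NT siRNAs and 1841 to 3677 TPM with *Uba1* siRNAs, and its part in the values of *Slc25a37* was not tested.

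The calcium-regulated carriers of ATP-Mg and phosphate differed widely between mice for 2 of the 3 members tested. At an unadjusted p under 0.05 in limma there were 0 of them (16% of all genes were higher and 1.98% lower). All 3 had a log2FC above 0 as deposited (81.8% of all genes) and 0 after median-ratio scaling (48%). *Slc25a25* (chromosome 2, 32303547 to 32341482, minus strand) was at 42.1, 34.0, 18.3 and 29.6 TPM with NT siRNAs and at 35.7, 31.4, 19.9 and 41.5 TPM with *Uba1* siRNAs. The mouse of pair 3 was the lowest in both legs. The means of the 2 legs spanned 0.98 over the 4 mice on the log2(TPM + 1) scale, and the log2FC was 0.06 (SE 0.271). The SE was 0.116 with the replicate block. *Slc25a24* was at 2.54 to 5.69 TPM with NT siRNAs and 2.50 to 5.37 TPM with *Uba1* siRNAs, with mouse means that spanned 0.84 and the mouse of pair 3 among the highest. Spans of 0.71 to 0.72 were seen for *Slc25a22* and *Slc25a45*, and of 0.63 for *Slc25a30*. On this scale *Slc25a25* had the widest span of the 37 tested, but relative to the mean *Slc25a45*, *Slc25a22* and *Slc25a24* varied more. Their SD over the NT muscles was 44.7%, 36.1% and 35.8% of the mean, against 32.0% for *Slc25a25*. *Slc25a23* had a log2FC of 0.08 (SE 0.0987).

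**Figure D4:**
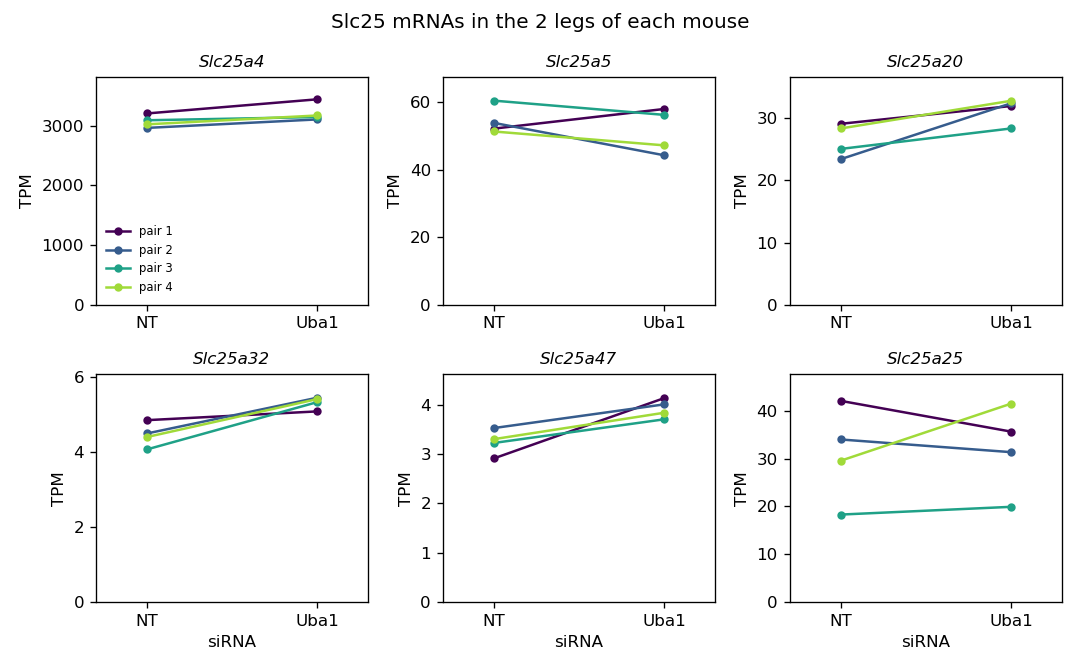
TPM of 6 Slc25 genes in the leg with NT siRNA and the leg with *Uba1* siRNA, with a line for each of the 4 mice. *Slc25a4*, *Slc25a20*, *Slc25a32* and *Slc25a47* are higher with *Uba1* siRNA in all 4 mice, *Slc25a5* is lower in 3, and *Slc25a25* is lowest in both legs of the same mouse, with 2 pairs higher and 2 lower.

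The relatives of the uncoupling proteins were all low. *Slc25a30* was at 3.47, 2.12, 3.55 and 4.04 TPM with NT siRNAs and at 4.09, 3.32, 4.76 and 5.38 TPM with *Uba1* siRNAs. It was higher in 4 of 4 pairs, the groups overlapped, and the log2FC was 0.33 (SE 0.167), with an adjusted p of 0.318 in limma, 0.0846 with the replicate block and 0.272 with the block after median-ratio scaling. *Slc25a27* (UCP4) was higher in 4 of 4 pairs with a log2FC of 0.10 (SE 0.0644), or -0.0067 after scaling, and *Slc25a14* had 0.01 (SE 0.0754), or -0.057 after scaling. The classical uncoupling proteins belong to the same protein family but carry other symbols, so the name rule left them out. *Ucp3*, that of skeletal muscle, was at 111, 87.6, 61.6 and 64.2 TPM with NT siRNAs and at 135, 116, 75.9 and 91.6 TPM with *Uba1* siRNAs, higher in 4 of 4 pairs with a log2FC of 0.37 (SE 0.221, adjusted p = 0.378 in limma, 0.0679 with the block) and 0.24 after scaling. *Ucp2* had a log2FC of -0.073 (SE 0.267) and *Ucp1*, that of brown fat, was listed at 0 in all muscles with *Uba1* siRNAs and averaged 0.011 TPM with NT siRNAs. *Mtch1* and *Mtch2*, carrier-like proteins of the outer membrane, each had a log2FC of 0.11, or -0.017 after scaling.

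Of the 5 tested members with other or unassigned substrates, 3 had an unadjusted p under 0.05 in limma, beside 16% of all genes on the higher side, and 0 after median-ratio scaling. All 5 had a log2FC above 0, as had 81.8% of all genes. *Slc25a47* (chromosome 12, 108801972 to 108822741, plus strand), best known from liver, was at 2.91, 3.53, 3.22 and 3.30 TPM with NT siRNAs and at 4.13, 4.01, 3.70 and 3.84 TPM with *Uba1* siRNAs. The groups did not overlap, and the log2FC was 0.22 (SE 0.0725, 95% interval 0.052 to 0.38, adjusted p = 0.197 in limma), or 0.11 after scaling. Its exons overlap those of *Slc25a29* on the opposite strand, so that reads from the overlap may count for either, and these 2 members are not independent.

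*Slc25a46*, a member of the outer membrane linked to mitochondrial shape, was at 16.3, 15.8, 18.0 and 17.0 TPM with NT siRNAs and at 21.7, 18.7, 19.4 and 17.8 TPM with *Uba1* siRNAs. It was higher in 4 of 4 pairs with a small overlap of the groups, and its log2FC was 0.20 (SE 0.0755, adjusted p = 0.230 in limma), or 0.074 after scaling. *Slc25a34* had the largest log2FC of the 37 tested on the log2(TPM + 1) scale, 0.38 (SE 0.162, 95% interval 0.020 to 0.75, adjusted p = 0.259 in limma), or 0.27 after scaling. It was at 9.57, 6.51, 7.01 and 7.69 TPM with NT siRNAs and at 9.16, 12.3, 7.71 and 12.6 TPM with *Uba1* siRNAs, lower in pair 1 and higher in the other 3. The ratio of mean TPM was 1.36 for it and larger, at 1.44, for *Slc25a45*. *Slc25a45* was higher in 4 of 4 pairs, with a log2FC of 0.33 (SE 0.206) and an adjusted p in limma of 0.397, or 0.0901 with the replicate block and 0.232 with the block after scaling. *Slc25a35* had a log2FC of 0.08 (SE 0.0898).

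The 10 members that did not enter the test were *Slc25a2*, *Slc25a13*, *Slc25a18*, *Slc25a21*, *Slc25a31*, *Slc25a41*, *Slc25a43*, *Slc25a48*, *Slc25a53* and *Slc25a54*. *Slc25a54* was listed at 0 in all 8 muscles and *Slc25a41* in all 4 with *Uba1* siRNAs. *Slc25a13* (citrin), the second aspartate-glutamate carrier, was at 0.377 ± 0.163 TPM in control and 0.464 ± 0.120 TPM in knockdown muscles (mean ± SD of 4 muscles). *Slc25a31*, the adenine nucleotide carrier of the male germ line, was at 0.0649 TPM or less in every muscle. *Slc25a18*, a glutamate carrier, was at 0.0664, 0.169, 0.245 and 0.108 TPM with NT siRNAs and at 0.0709, 0, 0 and 0 TPM with *Uba1* siRNAs, with groups that overlapped (p = 0.0571, exact permutation test). *Slc25a21*, the oxoadipate carrier, was at 0.0260, 0.0265, 0.0412 and 0.0141 TPM with NT siRNAs and at 0, 0, 0.0142 and 0 TPM with *Uba1* siRNAs, also with p = 0.0571 (exact). Both tests gave p = 0.0286 after median-ratio scaling (exact), and the number of reads behind these values is unknown.

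Among genes that serve or neighbour the carriers, 0 of 9 in the TIM22 import pathway, 0 of 5 among the pyruvate carrier and the porins and 0 of 3 tested creatine kinases passed the adjusted test, with or without the replicate block. Their median log2FC was 0.08, 0.06 and -0.048, beside 0.11 for all genes. Above 0 as deposited were 8 of 9, 5 of 5 and 1 of 3 (81.8% of all genes), and after median-ratio scaling 1 of 9, 0 of 5 and 0 of 3 (48%). *Mpc1*, a subunit of the mitochondrial pyruvate carrier, was higher in 4 of 4 pairs with a log2FC of 0.06 (SE 0.0680), or -0.072 after scaling, and *Vdac1*, the main porin, was at 973 ± 64.2 and 973 ± 39.1 TPM (mean ± SD of 4 muscles), with a scaled log2FC of -0.13. *Ckmt2*, the mitochondrial creatine kinase that takes up ATP exported by *Slc25a4*, had a log2FC of 0.13 (SE 0.130), or -0.0036 after scaling.

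Other cell types also contribute carrier mRNA to whole muscle. Of the markers of fibroblasts, 4 of 5 had a log2FC above 0 (81.8% of all genes) and 1 of 5, *Lum*, was higher at an unadjusted p under 0.05 in limma (16% of all genes), with sums of 316 to 596 TPM against 413 to 730 TPM (NT first). With the replicate block *Lum*, *Col1a1* and *Pdgfra* were higher at that threshold in limma, as were 22.4% of all genes. Fat cell markers had 1 of 4 tested above 0 and *Cidec* lower at an unadjusted p under 0.05 (1.98% of all genes), with sums of 9.10 to 16.2 against 3.06 to 13.3 TPM. With the block *Cidec*, *Adipoq* and the erythroid *Hbb-bt* and *Alas2* were lower at that threshold in limma (2.8% of all genes). The fat cell marker *Cidea* was higher at it with the block. Leukocyte markers summed to 102 to 329 against 100.2 to 350 TPM, endothelial markers to 94.1 to 131 against 106 to 129 TPM and Schwann cell markers to 39.9 to 63.6 against 30.2 to 73.9 TPM. Fast fiber markers, with *Acta1* and *Ckm* among them, had 1 of 7 above 0 and slow fiber markers 2 of 4. None of these genes passed the adjusted test, and their part in the carrier values was not tested.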

How the data were processed

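RNA was measured in 8 mouse TA muscles by RNA-seq. The authors prepared libraries with a TruSeq v2 kit, which does not mark strand, trimmed the reads, aligned them to GRCm39 (mm39) with CLC Genomics Workbench and deposited TPM for each gene and muscle. The annotation and the treatment of reads that match several genes are not given in the sources used here. TPM sum to 1000000 in each muscle and keep no read total, so no counting interval is given and the 4 muscles per group limit the precision.

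From the deposited TPM, log2(TPM + 1) was computed, the filter kept genes that reached 1 TPM in 4 or more of the 8 muscles, and limma (version 3.58.1, R 4.3.3, lmFit and eBayes with trend) was fitted to all muscles without covariates, with Benjamini-Hochberg adjustment over all genes tested. Before use, the script was tested on simulated data. The alternatives tried were a pseudocount of 0.1, no filter, a stricter one (mean TPM of at least 5), median-ratio scaling, quantile normalization, TPM without the mitochondrial genome, the replicate block alone and with either scaling, the Kruskal-Wallis test that the study's methods name, and leaving out each muscle. Single values and the 5 log2 ratios were compared by exact permutation tests, two-sided (scipy 1.17.1), which ignore the pairing of legs. P-values measure the spread between these muscles of 4 mice.

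Pairs come from the labels, in which 1 mouse gives both legs. Deviations of the 2 legs from their group means correlated by -0.00037, 0.20, 0.58 and 0.54 for pairs 1 to 4 (pairs are named by replicate number, not by the mouse numbers of the labels). Promoters come from RefSeq and gene positions from GENCODE for GRCm39.

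Values in every muscle were given for the 8 members with the highest mean TPM, any past the adjusted test, and up to 5 with the smallest unadjusted p in each direction. *Slc25a29*, *Slc25a44*, *Slc25a34*, *Slc25a30*, the low members *Slc25a18* and *Slc25a21* and the printed promoters were added after their values were seen. The family, the gene lists and the tests were chosen with earlier results of these data known. Of the members, 1 is counted but not reported by itself here.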

Additional observations from a re-analysis of the deposited data

Results flagged for a closer look

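Each of 78 groups of 4 muscles was checked for a muscle that stands apart from the other 3 by Dixon's test at the 95% level. Chance would flag 3.9 groups, and 4 were found. *Slc25a10* was at 2.42 TPM in NT siRNA replicate 1, below the 2.61 to 2.62 TPM of the other NT muscles. *Slc25a23* was at 9.39 TPM in NT siRNA replicate 1, above the others at 6.84 to 7.14 TPM. *Slc25a44* was at 14.5 TPM in NT siRNA replicate 3, below the others at 16.1 to 16.3 TPM. The summed Slc25 level was 4618 TPM in *Uba1* siRNA replicate 1, above the others at 4207 to 4257 TPM.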

How the results depend on the processing

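No alternative brought any member past the adjusted test. Uba1 passed it under the stricter filter of a mean TPM of at least 5 (log2FC -1.98), median-ratio scaling (-2.10), quantile normalization (-2.06), TPM without the mitochondrial genome (-2.0), the replicate block (-1.98), and the block with median-ratio scaling (-2.10) or quantile normalization (-2.06). Genes past it numbered 3 in the main test and 11, 28, 28, 13, 57, 82 and 62 under the same settings in that order, and 0 with Kruskal-Wallis (2013 higher and 197 lower at an unadjusted p under 0.05). Apart from Uba1 and this count, the replicate block changed no adjusted call printed here. Members higher at an unadjusted p under 0.05 numbered 8 in the main test, 5 under the stricter filter, 0 with median-ratio scaling or quantile normalization, 5 without the mitochondrial genome and 2 with the block and either scaling. Members lower numbered 1 in 4 settings: no filter, median-ratio scaling, and the block plus either scaling. On the lower side all genes were at 6.7% with median-ratio scaling and at 9.5% with the block added. The median log2FC of members was -0.022 with median-ratio scaling and -0.0019 with quantile normalization, both also with the block, and the share above 0 was 80.4% with no filter, 43.2% with median-ratio scaling and 45.9% with quantile normalization. Among all genes 72.4%, 48% and 54.6% were above 0 in the same order. The log2 summed TPM differed by -0.059 with median-ratio scaling.

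Of the 37 tested members, 17 had a log2FC that changed sign with median-ratio scaling. Among the members named for their level or p, with or without the block, Slc25a4 was at -0.064, Slc25a3 at -0.082, Slc25a11 at -0.035, Slc25a12 at -0.13 and Slc25a25 at -0.064. With quantile normalization, also with the block, Slc25a4 was at -0.0098, Slc25a3 at -0.0085, Slc25a12 at -0.036 and Slc25a25 at -0.019. Without the mitochondrial genome Slc25a16 was at 0.015. With a pseudocount of 0.1 the log2 ratio of Slc25a39 to Slc25a40 was -0.095. The causes were not tested.

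With each muscle left out in turn, genes past the test ranged from 2 to 39 (39 without Uba1 siRNA replicate 4, 6 without NT siRNA replicate 1, 5 without NT siRNA replicate 3 or Uba1 siRNA replicate 2), and Uba1 from -2.18 to -1.64, past the test without Uba1 siRNA replicate 2 or 4. Members higher ranged from 4 to 8, their median log2FC from 0.067 to 0.13, the share above 0 from 81.1% to 91.9% and the log2 summed TPM difference from 0.037 to 0.091. For all genes the median ran from 0.077 to 0.14 and the share above 0 from 72.7% to 87.8% over the same fits. How many of all genes were called higher in these fits is not given here. Signs changed within -0.074 to 0.058 for Slc25a10, -0.024 to 0.019 for Slc25a12, -0.045 to 0.043 for Slc25a16 and -0.16 to 0.27 for Slc25a25. They also changed for the log2 ratios of Slc25a37 to Slc25a28 (-0.059 to 0.11), Slc25a39 to Slc25a40 (-0.095 to 0.095) and Slc25a36 to Slc25a33 (-0.10 to 0.28).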
